A study of Mus musculus with 2 samples.

Results

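The Schlafen (Slfn) gene cluster of mouse chromosome 11 was examined as seen from the promoter of Ccl2, the gene of the monocyte-attracting chemokine CCL2, by 4C-seq, sequencing of circular chromosome conformation capture products. The members were the DpnII fragment ends that occur once in the genome and lie at chr11:82758193-83028192 (mm9), 910 to 1180 kb from the viewpoint towards higher coordinates. This stretch of 270 kb held 612 such unique ends, of 424613 on chromosome 11 in the Ccl2 library and 921359 in both libraries of the study. The choice used position and copy number in the genome, not read counts, but was made with earlier results of these data known.

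The study, whose title concerns early termination of transcription at cis-regulatory elements, deposited 1 library with a viewpoint at the Ccl2 start and 1 with a viewpoint at the Jun start. Both came from untreated macrophages grown from bone marrow of C57BL/6 mice (the growth protocol writes C57B6/Jhsd) in medium conditioned by L929 cells, 6 days in culture and labelled as day 7 of differentiation. The labels name no genetic change and no stimulus. Cross-linked chromatin (2% formaldehyde) was cut with DpnII at GATC and ligated, then cut with a second enzyme (written Csp61) and ligated again, and pieces joined to the viewpoint were amplified in 8 pooled PCRs and sequenced. A read at a fragment end therefore comes from a ligation product with the viewpoint. PCR copies cannot be removed because no molecular identifiers are described, so reads do not count ligation products. The deposited values are estimated counts, rounded here to whole reads. The Ccl2 library held 1248937 reads on unique ends of its chromosome and the Jun library 1652054. After ends closer than 5 kb to the viewpoint were left out, 901507 Ccl2 reads on 424567 ends remained, of which 8145 ends had a read. With 1 library per viewpoint there is no replicate error and no test between samples, so intervals below are exact 95% limits (Clopper-Pearson for shares, Poisson for read sums) and cover counting error only.

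Schlafen proteins are a family of mammals found mainly in immune cells, where many members are induced by interferon and act on cell growth, tRNA or virus replication. Mouse members fall into a short class (Slfn1, Slfn2), an intermediate class (Slfn3, Slfn4) and a long class with a helicase-like part (Slfn5, Slfn8, Slfn9, Slfn14). The family grew by local duplication, so that some of its genes and stretches of DNA are near copies of each other. In 4C-seq such copies matter because a read from a sequence present several times cannot be given to 1 place.

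The upstream sequences of 4 Schlafen genes show where cutting sites lie and how alike the copies are. They are the 250 bases before the start in RefSeq (GRCm38.p6), written 5′ to 3′ on the gene's strand, for Slfn5 at chr11:82951852-82952101 (plus strand), Slfn9 at chr11:82991831-82992080 (minus), Slfn8 at chr11:83020811-83021060 (minus) and Slfn2 at chr11:83064862-83065111 (plus). Capitals mark DpnII sites (GATC).
Slfn5: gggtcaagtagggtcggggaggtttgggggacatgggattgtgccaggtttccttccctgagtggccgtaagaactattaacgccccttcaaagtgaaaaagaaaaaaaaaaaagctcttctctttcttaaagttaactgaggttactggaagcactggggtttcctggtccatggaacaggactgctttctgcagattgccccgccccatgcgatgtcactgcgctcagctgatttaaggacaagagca
Slfn9: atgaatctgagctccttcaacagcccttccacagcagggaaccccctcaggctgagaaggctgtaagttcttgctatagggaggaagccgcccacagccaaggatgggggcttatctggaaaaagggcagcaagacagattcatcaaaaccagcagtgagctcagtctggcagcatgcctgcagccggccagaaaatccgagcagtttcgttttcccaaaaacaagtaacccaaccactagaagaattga
Slfn8: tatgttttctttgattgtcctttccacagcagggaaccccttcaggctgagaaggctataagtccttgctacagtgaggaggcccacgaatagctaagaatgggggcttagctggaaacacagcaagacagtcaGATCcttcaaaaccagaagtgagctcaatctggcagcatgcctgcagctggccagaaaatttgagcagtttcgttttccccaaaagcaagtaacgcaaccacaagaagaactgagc
Slfn2: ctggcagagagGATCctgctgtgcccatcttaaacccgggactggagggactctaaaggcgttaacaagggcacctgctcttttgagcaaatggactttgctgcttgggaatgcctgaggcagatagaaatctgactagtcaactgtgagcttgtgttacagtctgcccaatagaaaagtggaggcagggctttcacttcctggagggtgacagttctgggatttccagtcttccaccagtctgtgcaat
Of these 4 upstream stretches, those of Slfn8 and Slfn2 hold a DpnII site and those of Slfn9 and Slfn5 hold none. Aligned end to end over 300 bases (50 of them after the start), Slfn9 and Slfn8 matched at 246 of 295 aligned bases, 83.4%, against 63.5% for the next most alike of 21 pairs and 45.5% for the least alike. Even so, both ends of the fragment holding the Slfn9 start, and both of that holding the Slfn8 start, occur once in the genome. A GATC was present in 48.0% of all 32851 RefSeq promoter sequences of this length.

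Genes were placed on the mm9 fragment map through such sites. All 42 DpnII sites in 56 RefSeq promoter sequences around Ccl2 and the Schlafen genes fell within 3 bp of a deposited fragment edge at 1 common shift, against 7 sites at the next best shift. At this placement the viewpoint fragment of 306 bp lay 886 bp before the Ccl2 start. From the viewpoint outwards the order was Slfn5 (916.7 to 930.2 kb), Slfn9 (939.6 to 957.1 kb), Slfn8 (967.4 to 986.1 kb), the pseudogene Slfn10-ps (993.4 to 1005.8 kb), Slfn2 (1030.4 to 1036.0 kb), Slfn1 (1082.1 to 1088.0 kb), Slfn4 (1140.5 to 1155.5 kb) and Slfn3 (1156.6 to 1180.5 kb). Slfn9 and Slfn8 are read towards the viewpoint, and Slfn5, Slfn2, Slfn1, Slfn4 and Slfn3 away from it. Unc45b, a myosin chaperone gene, precedes the cluster, and Slfn14 (1240.4 to 1252.0 kb), which lies beyond the stretch, follows it.

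Of the 612 unique ends in the cluster, 82 had at least 1 read, 13.4% (10.8 to 16.4). Over all unique ends of chromosome 11 at 5 kb or more from the viewpoint the share was 1.92%, and over those at 500 to 2000 kb on either side it was 6.99%. The 82 ends held 6681 reads, 0.741% of the library's reads, or 24.7 reads per kb (24.2 to 25.3). Reads were unequal among them: the lowest covered end had 1 read, the median 51 and the highest 427. In all, 17 ends with 1 to 9 reads held 80 reads, 42 ends with 10 to 99 held 2070, and 23 ends with 100 or more held 4531. The 10 ends with the most reads carried 41.3% of the total. Another 18 ends held an estimated value that rounded to 0.

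**Figure D1:**
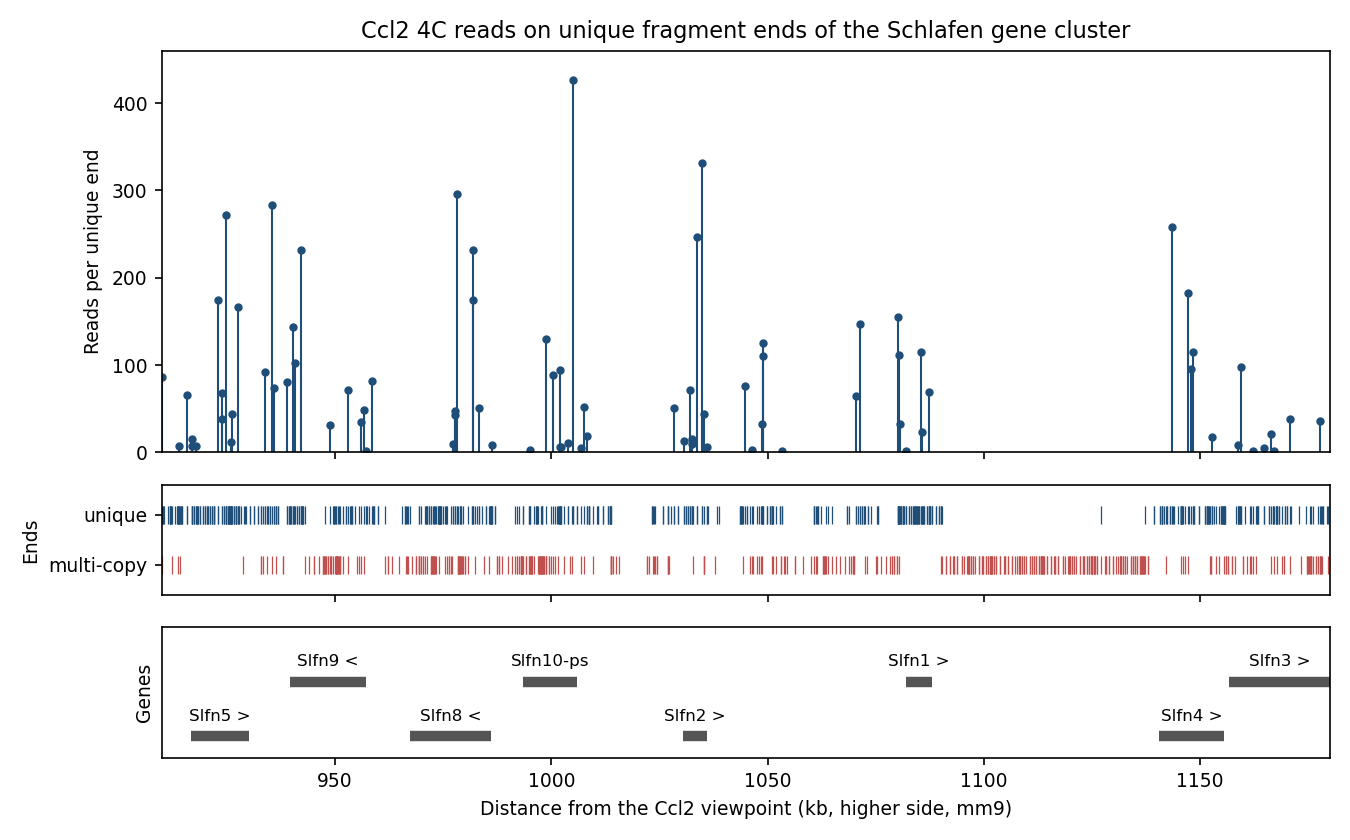
Reads per unique fragment end (top, each stem 1 end with a read) against distance from the Ccl2 viewpoint in kb, over all unique and multi-copy ends (middle) and Schlafen gene bodies (bottom, arrows give strand). Stems reach 427 reads inside Slfn10-ps, and no unique end with a read lies between 1087.4 and 1143.5 kb, where most ends are multi-copy.

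The same distance on the lower side of Ccl2 was covered far less. There 33 of 1159 unique ends had a read, 2.85% (1.97 to 3.98), with 2096 reads or 7.76 per kb. The lower-side share was 1.93% at 640 to 910 kb, 5.78% at 1180 to 1450 kb and 7.70% at 1450 to 1720 kb. At the last of these distances the higher side had 6.74%. The Schlafen share was 4.71 times that of the mirror stretch at the same distance, with intervals apart. Its reads per kb were 3.19 times as many. Poisson intervals of the read sums take each read as independent, PCR copies included. They do not measure the spread between ligation products. In the mirror stretch the 10 most read ends carried 68.5% of the reads. The cluster has only 2.27 unique ends per kb against 4.29 in the mirror stretch, so that counted per unique end the difference was 6.04-fold (10.9 against 1.81 reads per end).

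Along the higher side, coverage in the Schlafen cluster stood between its neighbours. The adjoining 270 kb towards the viewpoint, with the Cct6b to Unc45b genes, had 227 of 1096 unique ends covered, 20.7% (18.3 to 23.2), and 65.4 reads per kb. The adjoining 270 kb beyond, with Slfn14, Ap2b1, Rasl10b, Gas2l2, Mmp28 and Taf15 among its genes, had 73 of 974, 7.49% (5.92 to 9.33), and 21.7 reads per kb. The Schlafen share was thus 0.647 times the nearer and 1.79 times the farther one, with intervals that did not overlap either. Reads per kb of the cluster were 0.378 times those of the nearer stretch and 1.14 times those of the farther one. Inside the cluster, the 90 kb nearest to the viewpoint, the middle 90 kb and the farthest 90 kb had 36 of 278 ends (12.9%, 9.24 to 17.5), 33 of 208 (15.9%, 11.2 to 21.6) and 13 of 126 (10.3%, 5.61 to 17.0) covered. These intervals overlap, while reads were 3237, 2566 and 878 in the same order.

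**Figure D2:**
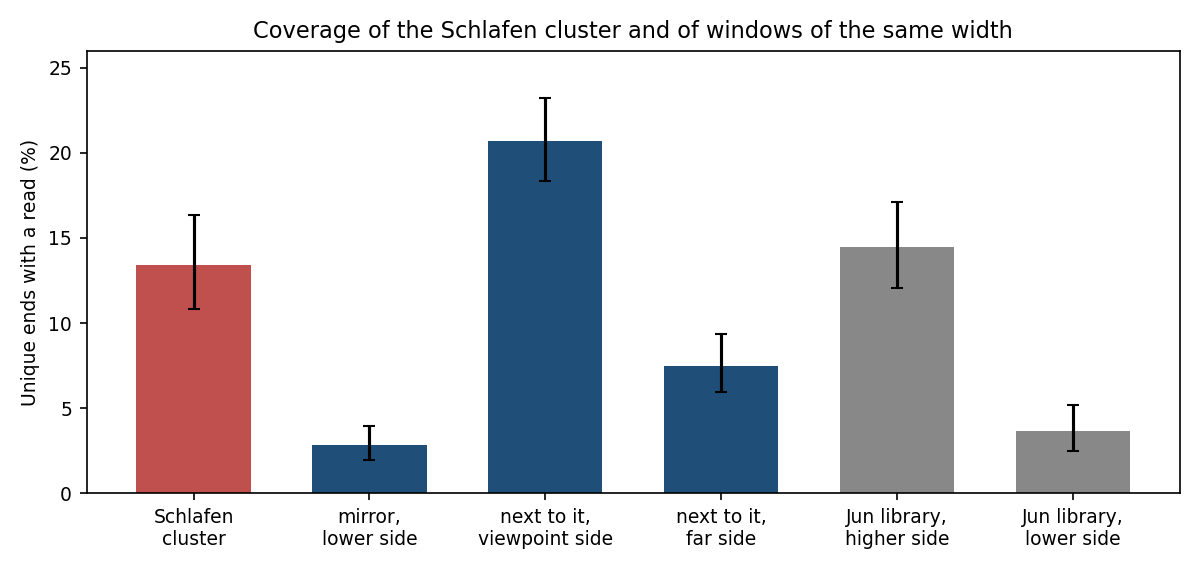
Percentage of unique ends with at least 1 read in the Schlafen cluster and in 5 stretches of the same width, with exact 95% binomial intervals from counting error only. The Schlafen bar, at 13.4%, lies between the nearer neighbour at 20.7% and the farther one at 7.49%, above the mirror stretch at 2.85%, and next to 14.5% in the Jun library's higher side.

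The Jun library, made from the same kind of cells with its viewpoint on chromosome 4, gives another view of this distance. At 910 to 1180 kb from Jun, 113 of 782 unique ends on the higher side (14.5%, 12.1 to 17.1) and 30 of 824 on the lower side (3.64%, 2.47 to 5.16) had a read, beside 1.91% over that whole chromosome. The Schlafen share was 0.927 times the former and 3.68 times the latter, and its interval overlapped that of the higher side. Shares on the higher side thus overlapped between the libraries at this distance, and those on the lower side of each viewpoint were lower.

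Cut into 438 stretches of 270 kb with at least 100 unique ends, chromosome 11 had 3 with a higher share of covered ends than the Schlafen cluster. All 3 were nearer to Ccl2, at 100 to 370 kb (31.2%) and 640 to 910 kb (20.7%) on the higher side and at 100 to 370 kb on the lower side (16.2%). The stretch at 370 to 640 kb on the higher side, nearer than the cluster, was at 9.19%. In the 430 stretches farther away the median share was 1.16% and the highest 7.70%, at 1450 to 1720 kb on the lower side, and 10 were above 5%. The highest read sum among these 430 was 5853, in the stretch next to the cluster, against 6681 in the cluster.

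**Figure D3:**
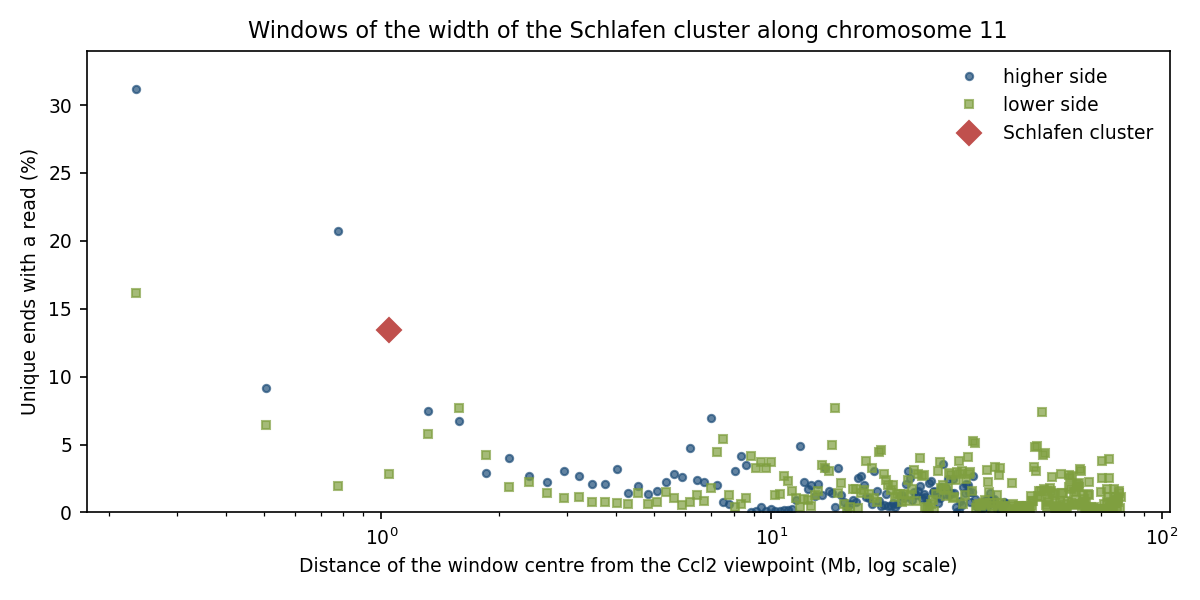
Percentage of unique ends with a read in stretches of 270 kb along chromosome 11 against the distance of their centre from the Ccl2 viewpoint (Mb, log scale), by side, with the Schlafen cluster as a diamond. The cluster, at 13.4%, lies above every stretch farther from Ccl2, whose highest is 7.70%, and below 3 nearer ones.

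Against the decay of reads with distance the cluster was above the line by a moderate factor. A log-log line through reads per kb in 10 bins from 20 to 2000 kb, both sides pooled, had an exponent of -1.35 and gave 4249 expected reads, so that the observed 6681 were 1.57 times as many. The same ratio was 0.493 in the mirror stretch, 2.76 in the nearer neighbour and 1.88 in the farther one. By reads per kb the cluster thus had the lowest ratio of these on the higher side. With a line through the higher side alone the Schlafen ratio was 1.11. The line takes no account of unique ends per kb, 2.27 in the cluster, 4.06 in the nearer neighbour and 3.61 in the farther one. Reads per unique end in the cluster were 0.678 times those of the nearer neighbour and 1.82 times those of the farther one. Counted per unique end, a setting chosen after seeing the data, observed over expected was 2.61 in the cluster.

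Reads were unequal between stretches of the cluster. Of its 27 windows of 10 kb, 5 held at least 3 times the expected reads, while over all 396 such windows from 20 to 2000 kb on either side 12.4% did, a share near enough that the count is not a result about the cluster. The count was 3 against a monotone decay, 2 by covered ends in place of reads, and 1 in windows of 20 kb. It was 4 without the most read end of the cluster and 6 on divided fragments (with a second-cutter site inside) alone. Per unique end, chosen after seeing the data, it was 9. The 5 lay at 1140 to 1150 kb in Slfn4 (652 reads, 4.73-fold), 1030 to 1040 kb over Slfn2 (738 reads, 4.67-fold), 1000 to 1010 kb at the far end of Slfn10-ps (709 reads, 4.31-fold), 920 to 930 kb in Slfn5 (775 reads, 4.21-fold) and 1080 to 1090 kb over Slfn1 (508 reads, 3.43-fold). In the Slfn10-ps window 9 of 30 unique ends were covered and in the Slfn2 window 8 of 23. Of the 709 reads in the Slfn10-ps window, 427 fell on 1 end. In the Slfn4 window it was 4 of 37, so its reads rest on few ends. The median ratio of the 27 windows was 0.910, beside 0.675 over all 396 and 1.41 on the higher side from 500 to 2000 kb.

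At the other end, 8 of the 27 windows had no read on a unique end. They were those at 960 to 970 kb, from between Slfn9 and Slfn8 into the 3′ end of Slfn8, 1010 to 1020 kb between Slfn10-ps and Slfn2, 1060 to 1070 kb between Slfn2 and Slfn1, and all 5 from 1090 to 1140 kb between Slfn1 and Slfn4. Together these 8 windows held 46 unique ends, and 2 of them held none, so an empty window here is in part one with little to read. Unique ends per window ranged from 0 to 60.

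The short class gene Slfn2, needed to keep T cells and monocytes quiescent, had the highest covered share of the 8 gene bodies. Within its 5.6 kb body 8 of 20 unique ends had a read, 40% (19.1 to 63.9), with 738 reads, of which 331 fell on the end at 1034.9 kb and 247 on the end at 1033.7 kb. The other 6 covered ends had 6 to 72 reads. The fragment with 247 reads also holds the start of Gm20234, an annotated transcript inside the Slfn2 body. Slfn1, the other short member, first known from arrest of thymocyte growth, had 3 of 35 covered, 8.57% (1.80 to 23.1), with 207 reads, although every end in its body is unique. The intervals of Slfn2 and Slfn1 overlap.

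Of the intermediate class, Slfn4, which is expressed in macrophages and changes during their activation, had 5 of 61 unique ends covered, 8.20% (2.72 to 18.1), yet 670 reads, from ends of 258, 183, 115, 96 and 18 reads. All 5 lay at 1143.5 kb or farther, past the start of the gene. Slfn3 had 8 of 53 covered, 15.1% (6.75 to 27.6), with only 208 reads, 98 of them on 1 end at 1159.5 kb. The 2 genes thus differed the opposite way in covered ends and in reads, and their intervals for the share overlap.

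Among the long class, Slfn5, an interferon-induced nuclear protein, had 10 of 68 unique ends covered, 14.7% (7.28 to 25.4), with 804 reads. Its covered ends gathered in the far part of the body, from 923.0 to 927.5 kb, where 7 ends held 12 to 272 reads. The body overlaps Slfn5os, a long noncoding RNA on the opposite strand (907.7 to 926.0 kb, 14 of 99 ends, 849 reads), so that the same reads count for both. Slfn9 had 7 of 44 covered, 15.9% (6.64 to 30.1), with 664 reads, led by an end of 232 reads at 942.0 kb. Slfn8 had 7 of 65, 10.8% (4.44 to 20.9), with 854 reads, led by 296 reads at 978.2 kb and by both ends of 1 fragment at 981.9 kb with 232 and 175. Its covered ends all lay from 977.4 kb on, and the 49 unique ends from 958.8 to 977.4 kb, the longest run without a read in the cluster, take in the 3′ part of the gene. The pseudogene Slfn10-ps had 8 of 35, 22.9% (10.4 to 40.1), with 766 reads, 427 of them on the most read end of the cluster at 1005.1 kb. Slfn14, an endoribonuclease gene of platelets and red cell precursors outside the stretch, had 7 of 67, 10.4% (4.30 to 20.3), with 547 reads.

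**Figure D4:**
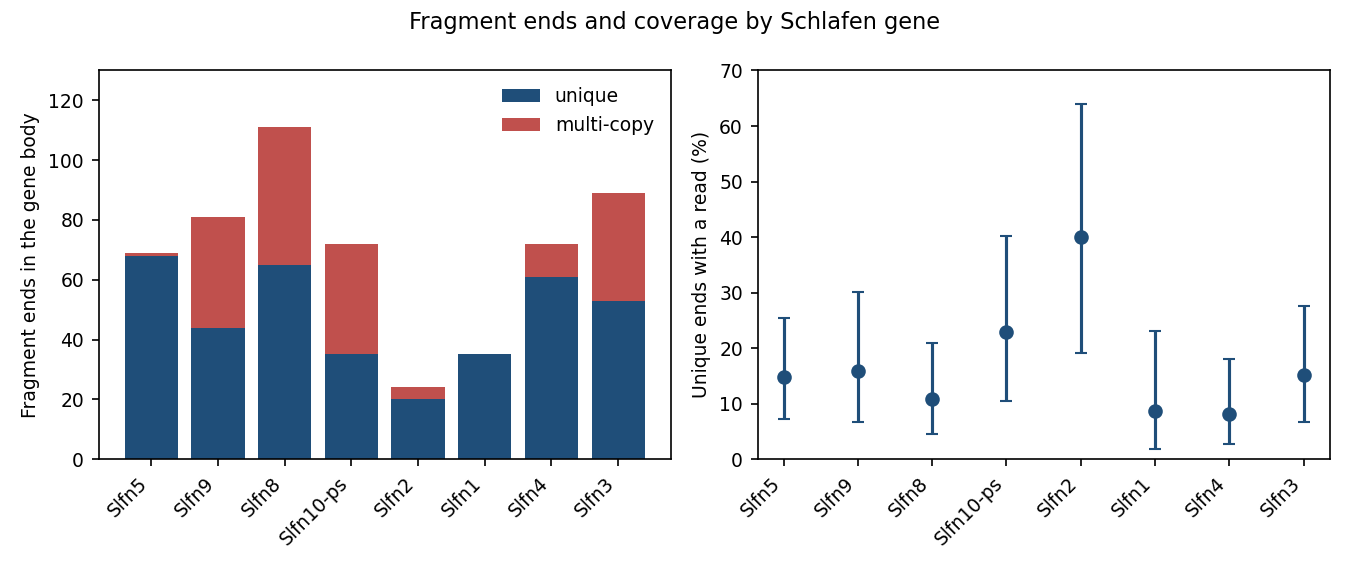
Left, unique and multi-copy fragment ends in the body of each Schlafen gene (stacked counts); right, percentage of its unique ends with at least 1 read, with exact 95% binomial intervals. Slfn2 is highest at 40% on 20 unique ends, and the intervals of the other 7 genes overlap one another and that of Slfn2 except for the body of Slfn4 at 8.20%.

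Ordered by share, the genes ran Slfn2, Slfn10-ps, Slfn9, Slfn3, Slfn5, Slfn8, Slfn1 and Slfn4, and no neighbours in this order had intervals apart. Only Slfn2 and Slfn4 did, of all pairs of these 8 genes. The gene bodies together, 112.4 kb, had 56 of 381 unique ends covered, 14.7% (11.3 to 18.7), and the 157.6 kb outside them 26 of 231, 11.3% (7.49 to 16.1). The 46.1 kb between Slfn2 and Slfn1 had 12 of 89, 13.5% (7.17 to 22.4), so coverage was not confined to genes. Between Slfn5 and Slfn9 it was 4 of 30, with 530 reads, 283 of them on an end at 935.5 kb.

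Most covered ends had another within 2 kb, but unbroken runs of them were short. Of the 82 covered ends, 70 (85.4%) had another covered end within 2 kb. This share was 27.3% in the mirror stretch, 96.9% in the nearer neighbour and 68.5% in the farther one. It depends on the covered share and on unique ends per kb, which differ between these stretches. The share for ends covered at random was not computed, so these values do not show clustering. The longest runs of covered ends were 3 ends long, before and at the edge of Slfn5 (915.8 to 916.9 kb, 88 reads), at the Slfn9 start (956.0 to 957.2 kb, 86 reads) and in Slfn8 (977.4 to 977.8 kb, 100 reads). The longest runs without a read were the 49 ends ending in Slfn8, 33 ends from Slfn1 into Slfn4 over 56.1 kb (1087.4 to 1143.5 kb), and 31 ends between Slfn10-ps and Slfn2 over 20.1 kb (1008.3 to 1028.4 kb).

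The gene starts themselves carried few reads. Of the fragments that hold a Schlafen start, those of Slfn9 (507 bp) and Slfn1 (1020 bp) had 2 reads each and that of Slfn2 (866 bp) had 13, each on the left end alone. Those of Slfn5 (488 bp), Slfn8 (232 bp) and Slfn4 (2299 bp) had 0 on both ends, which are unique. Both ends of the Slfn3 fragment (699 bp) occur at 2 places in the genome. For Slfn5 the start was that of its upstream sequence, at 917.4 kb, inside a gene body that begins at 916.7 kb. A run of 3 covered ends (915.8 to 916.9 kb, 88 reads) lies at that body edge. A start at the body edge was not tried. Thus 3 of 6 Schlafen genes with a unique end at the start had a read there, on 3 of 12 ends, beside 6 of 26 distinct start fragments of other genes outside the cluster from 500 to 1700 kb on that side, on 7 of 48 ends. Within 5 kb of the start, reads were 783 at Slfn2 (8 of 28 unique ends), 467 at Slfn8 (4 of 22), 439 at Slfn1 (6 of 47), 258 at Slfn4 (1 of 20), 239 at Slfn9 (5 of 24), 124 at Slfn3 (3 of 35) and 102 at Slfn5 (5 of 46).

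Reads depended on the fragment as well as on the place. On fragments with a second-cutter site inside (divided), 51 of 243 unique ends in the cluster had a read, 21.0% (16.04 to 26.7), and on undivided ones 31 of 369, 8.40% (5.78 to 11.7). The same order held in the mirror stretch (5.02% and 1.09%) and in the nearer (32.7% and 11.9%) and farther (13.8% and 2.55%) neighbours. Of 217 cluster fragments with both ends unique, 5 had reads on both ends, 47 on 1 and 165 on none. In 9 of the 10 most read ends, the other end of the same fragment had no read.

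Fragment ends present more than once in the genome limited what could be read. Their sequences were not read, so how many are copies of Schlafen genes was not tested. Of all 1077 fragment ends in the cluster, 465 occur more than once in the genome, 43.2% (40.2 to 46.2), against 12.7% over chromosome 11 and 7.50%, 11.7% and 14.9% in the mirror, nearer and farther stretches. By gene, unique ends made up all ends in Slfn1, 98.6% in Slfn5, 84.7% in Slfn4, 83.3% in Slfn2, 59.6% in Slfn3, 58.6% in Slfn8, 54.3% in Slfn9 and 48.6% in Slfn10-ps. Multi-copy ends were less frequent inside the gene bodies (31.1%) than outside them (55.9%), but without the stretch from Slfn1 to Slfn4 the share outside was 36.2%. A deposited value on a multi-copy end is an estimate shared among its copies. Of the 465, 121 held at least 1 read by this estimate, 26.02% (22.1 to 30.3), 4107 reads in all, beside 3.9% of multi-copy ends over chromosome 11.

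The sharing was visible in Slfn9, Slfn8 and Slfn10-ps. At 3 ends present 3 times in the genome, taken as once in each of these genes without reading their sequences, the deposited values were 75.5, 63.4 and 63.3 (fragments of 532, 532 and 526 bp), 26.9, 22.3 and 22.1 (97 bp in each) and 6.31, 5.25 and 5.23 (458, 481 and 476 bp). Other ends with 3 copies in these genes also held reads and are not listed. The order Slfn9, Slfn8, Slfn10-ps and nearly the same ratio recurred at each of the 3. These values therefore do not tell which of the genes was ligated.

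Between Slfn1 and Slfn4 lies a tandem repeat. Of 112 fragments in this 52.5 kb, 88 had room for a partner 11.68 kb farther on, and 78 of them (88.6%) had one of equal length (within 10 bp, at that distance within 0.05 kb). At the next multiples of this lag 52 of 62 and 26 of 36 matched, while the best unrelated lag, 11.04 kb, matched 5. The fragment order thus repeats 4 times. Here 170 of 184 ends were multi-copy, 92.4%, and the 14 unique ends had no read, with an exact upper limit of 23.2% (the rule of 3 counts gives 21.4%).

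**Figure D5:**
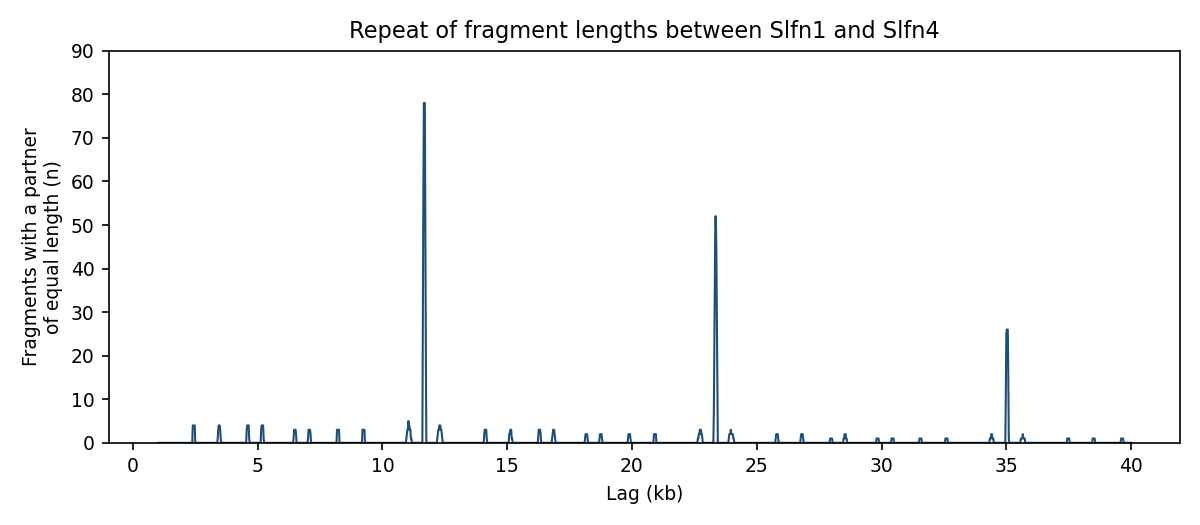
Number of fragments between Slfn1 and Slfn4 that have a partner of equal length (within 10 bp) at a given lag (kb). Peaks of 78, 52 and 26 fragments stand at 11.68 kb and its multiples, and other lags reach 5.

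Multi-copy ends of the repeat held reads by the deposited estimate, which shares reads among copies. Of its 170 multi-copy ends 63 held reads, 1836 in total. Some of these ends have more copies than the repeat has units. The end at 1093.9 kb, with 27 reads, occurs 40 times in the genome, so such reads need not come from this stretch. Of 46 groups of equivalent ends, 40 were present in all 4 copies, 15 of them with reads and 25 without. In each of the 15 the value was split almost evenly, with mean shares of 25.4% ± 0.049, 25.1% ± 0.119, 25.01% ± 0.0175 and 24.4% ± 0.0893 (SD, n = 15 groups of ends) from the nearest to the farthest copy. In the group with the most reads, on fragments of 697 bp present 5 times in the genome, the values were 108.2, 107.9, 106.6 and 103.4 at 1100.4, 1112.1, 1123.8 and 1135.5 kb. A fragment of 704 bp with an end of 5 copies, at 1079.3 kb before the Slfn1 start, held 114.1, and the 5 values sum to 540.1. The small spread between groups is that of the estimate, not of separate measurements of the copies. The stretch from Slfn1 to Slfn4 thus had no reads on unique ends. The 1836 estimated reads on its multi-copy ends do not show whether it was ligated.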

How the data were processed

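The files hold, per the file headers, estimated counts of reads at the left and right end of each DpnII fragment of the viewpoint chromosome, with each end's number of copies in the genome (multiplicity) and fragment lengths, in bins of 16 bp. The submitters' processing notes name mm9. For the aligner, a name was not given in the sources used. The deposited estimated counts were rounded to whole reads. Ends with multiplicity 1 at 5 kb or more from the viewpoint were used, and 1 read counted as covered.

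Samples were grouped by their titles, with 1 library per viewpoint, so no test was made. A window of 10 kb was called at 3 times the reads of the decay line or more. Genes were placed through DpnII sites in RefSeq promoter sequences (GRCm38.p6) by 1 joint match, added after seeing the data because several promoters hold no site. Named were all Schlafen genes, the 10 most read ends, the 3 highest and all empty windows and the 3 longest runs of covered and of uncovered ends, with other called windows and ends named after their values were seen. The members and lists were chosen with earlier results of these data known. Alternatives covered the read minimum, multiplicity, fragment type, window position, single ends, the decay line and window width. Scripts used Python 3.11.15, NumPy 2.4.6, pandas 2.3.3, SciPy 1.17.1, scikit-learn 1.9.0, Biopython 1.88 and Matplotlib 3.10.9, and were tested on simulated data.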

Additional observations from a re-analysis of the deposited data

Results flagged for a closer look

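Ends that occur at several places lie outside the main measurement, which used unique ends. In the Schlafen cluster 121 of 465 such ends held at least 1 read by the deposited estimate, 26.02% (22.1 to 30.3, exact binomial), against 3.9% over chromosome 11, a comparison not matched for distance. Unique ends stood at 13.4% against 1.92% in the same comparison. Outside the repeat between Slfn1 and Slfn4 it was 58 of 295, 19.7% (15.3 to 24.7). There is no control library for this comparison. The part of the even sharing among copies in this share was not tested.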

How the results depend on the processing

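No result reversed. Of the alternative values, 35 stayed close to those reported while 32 moved by more than the counting interval or, for counts of windows, by over 1.5 times. For ratios this interval holds the counting error of the Schlafen cluster alone, not that of the stretch or line compared. It is thus narrower than the full counting error, and the split into 35 and 32 depends on it. With ends of any multiplicity, the covered share was 18.8%, reads per kb 39.96, the mirror ratios 6.38 (share) and 4.98 (reads), observed over expected reads 2.12, and the ratios to the nearer and farther neighbours 0.921 and 2.30. On divided fragments alone, the share was 21.0%, reads per kb 19.3, the mirror ratio of reads 2.68 and observed over expected 1.44. With the window shrunk by 20 kb at both ends the mirror ratio of reads was 2.74. Moved by 20 kb towards the viewpoint, reads per kb were 27.2, the mirror ratio of reads 2.76 and observed over expected 1.68; moved away, the mirror ratios were 3.79 (share) and 2.59 (reads). Without the most read end of each window, these were 23.2 reads per kb, 3.30 and 1.48, and with reads capped at the 95th percentile 23.5, 3.03 and 1.34. Observed over expected reads fell to 1.11 with a line through the higher side alone, 1.25 with a monotone decay and 1.17 with covered ends in place of reads. Windows called at 3-fold, 5 as reported, were 3 with a monotone decay, 2 by covered ends and 1 in windows of 20 kb (10.6% of all such windows). Per unique end, chosen after seeing the data, the mirror ratio of reads was 6.04, observed over expected 2.61 and 9 windows were called. The cause of these shifts was not tested. No paired analysis was possible because each viewpoint has 1 library. The median covered end of the cluster had 51 reads, and PCR copies cannot be removed. With a minimum of 2 or 5 reads the covered share of the cluster was 13.1% or 12.3%. Whether depth limits small windows was not tested.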
